A study of Mus musculus with 18 samples.

Results

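The genes described here are 10 components and targets of the leukemia inhibitory factor (LIF) pathway: the receptor genes Lifr and Il6st, the kinase gene Jak1, the transcription factor gene Stat3, and the targets Socs3, Socs2, Bcl3, Pim1, Pim3 and Junb. They were chosen by gene name for their place in the pathway, by a rule without a threshold on values, and make up 10 of the 55469 genes measured. The choice was made with earlier results of these data known. All 10 passed the filter on low values, FPKM (fragments per kilobase of transcript, scaled to the mapped fragments of the library) over 1 in at least 1 library, in every comparison.

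LIF is a cytokine that binds LIFR, which pairs with gp130, the product of Il6st. Both chains carry Janus kinases such as JAK1, which phosphorylate the receptor and STAT3, and STAT3 then enters the nucleus and activates transcription. In mouse embryonic stem cells (ESCs) this route is a classical support of self-renewal, and SOCS3, itself made on STAT3 activation, binds gp130 and closes the loop by inhibiting it.

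The study sequenced poly-A RNA of 18 libraries in 9 groups of 2. One Tet-On-OSKM/Oct4-GFP ESC line, derived from a cross of (C57BL/6 x 129S4/SvJae)F1 with (CBA/CaJ X C57BL/6J)F2 mice, was either kept in 2iL (N2B27 base medium with the MEK inhibitor PD0325901, the GSK3 inhibitor CHIR99021 and LIF; 2iL-ESCs) or moved to N2B27 with doxycycline (DOX; OSKM-ESCs) and collected on days 18, 25 and 38. Tet-On-OSKM embryonic fibroblasts (MEF) of (C57BL/6 x 129S4/SvJae)F1 background, grown in DMEM with FBS to passage 4, were reprogrammed into OSKM-iPSC clones 1 and 3 (passages 7 and 6, N2B27 with DOX) and 2iL-iPSC clones 3 and 6 (passages 2 and 3). The labels give DOX medium for the routine culture of the 2iL-iPSCs, whereas the series description and the study's methods give 2iL. Groups here follow the sample names.

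Every group carries the same DOX-inducible polycistronic cassette of Oct4, Sox2, Klf4 and c-Myc at Col1a1 with the M2rtTA transactivator at Rosa26, and the 2iL-ESCs are the same line without DOX. The OSKM medium therefore differs from 2iL in 4 ways at once, since it lacks LIF and both inhibitors and contains DOX, so that their parts in any difference cannot be told apart. In the iPSCs the passage also goes with the medium, so that differences between media there cannot be told apart from differences of passage. The ESCs are 1 line and each iPSC library is 1 clone. By the study's methods, the ESC line was both derived and kept in 2iL on feeder fibroblasts, and the iPSCs were induced on them. The labels do not say whether 2 libraries of a group came from separate cultures, so the p-values measure only the spread between these libraries, which may be technical.

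Libraries held 11303 to 12095 genes over 1 FPKM, and their depth in reads is unknown because the files hold no counts. The 7 pluripotency markers summed to 1144 to 1788 FPKM in OSKM-ESCs, 2741 to 3076 in 2iL-ESCs and at most 0.466 in MEF, where 5 of the 7 (Pou5f1, Nanog, Zfp42, Tdgf1 and Utf1) were at 0. Pou5f1 made up 586 to 810 FPKM of the OSKM-ESC sums, and its values can include reads of the Oct4 in the cassette. Mean Pou5f1 was 700 FPKM in OSKM-ESCs and 703 in 2iL-ESCs, and mean Utf1 was 302 and 140. The means of Nanog, Zfp42, Esrrb, Dppa5a and Tdgf1 were lower in OSKM-ESCs. The 9 fibroblast markers summed to 941 to 1080 FPKM in MEF, 15.9 to 27.2 in OSKM-ESCs and 3.23 to 5.47 in 2iL-ESCs. In the iPSCs that sum was 71.9 in OSKM-iPSC clone 1, 4.32 in OSKM-iPSC clone 3 and 1.83 to 3.30 in the 2iL-iPSCs. The 5 trophoblast markers summed to 27.2 and 25.2 FPKM in the day 38 OSKM-ESCs, of which Cdx2 made up 26.3 and 24.5, and the 6 endoderm markers to 5.14 and 6.83. In the day 38 2iL-ESCs these sums were 1.81 and 1.55, and 0.963 and 0.664. The trophoblast markers other than Cdx2 summed to 0.888 and 0.659 FPKM in the day 38 OSKM-ESCs, with 3 of the 5 at 0 in each library. The trophoblast sum was 30.1 FPKM in OSKM-iPSC clone 3 and 9.25 in clone 1, of which Ascl2 made up 24.95 and 5.44. In 2iL-iPSC clones 3 and 6 the trophoblast sum was 5.21 and 2.57. Cdx2 averaged 0.352 FPKM in the OSKM-iPSCs and 0.559 in the 2iL-iPSCs. In bulk RNA, fewer cells of a type and less RNA per cell cannot be told apart.

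Promoter sequences are shown for each member whose window held the motif searched for, which was Socs3 alone, and for the receptor gene Lifr. The sequence of Lifr was to be shown whatever the search gave. The search was for TTCNNNGAA, the palindromic core of a STAT site, which reads the same pattern on both strands, in RefSeq windows (GRCm38.p6) from 250 bases before to 50 after each annotated start. It was present in 1 of 11 windows of the 9 members with one, that of Socs3 (TTCTTAGAA at positions -154 to -146 from the start), against 8.3% of all 32851 windows. A match describes letters only, and no match speaks only of this window. The 250 bases before the start are printed 5′ to 3′ with the match in capitals, for Socs3 at chr11:117969367-117969616 on the minus strand and for the start sites of Lifr at chr15:7129322-7129571 and chr15:7140292-7140541 on the plus strand. The Socs3 start of RefSeq lies inside the longer gene of the annotation behind the FPKM values. Both Lifr windows likewise lie inside the annotated Lifr gene (7090614 to 7197489), downstream of its annotated start, so that start was not searched.
Socs3: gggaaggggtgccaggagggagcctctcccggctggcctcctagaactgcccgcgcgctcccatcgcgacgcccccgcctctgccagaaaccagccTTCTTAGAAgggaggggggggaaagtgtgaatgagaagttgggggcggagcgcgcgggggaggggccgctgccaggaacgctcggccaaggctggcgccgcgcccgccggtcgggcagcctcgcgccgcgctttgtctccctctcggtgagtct
Lifr upstream start: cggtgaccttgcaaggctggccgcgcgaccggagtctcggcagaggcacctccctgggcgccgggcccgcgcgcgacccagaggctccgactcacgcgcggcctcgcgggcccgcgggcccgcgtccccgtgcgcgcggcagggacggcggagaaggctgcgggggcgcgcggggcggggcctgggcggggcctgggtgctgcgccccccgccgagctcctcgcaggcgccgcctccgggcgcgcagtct
Lifr downstream start: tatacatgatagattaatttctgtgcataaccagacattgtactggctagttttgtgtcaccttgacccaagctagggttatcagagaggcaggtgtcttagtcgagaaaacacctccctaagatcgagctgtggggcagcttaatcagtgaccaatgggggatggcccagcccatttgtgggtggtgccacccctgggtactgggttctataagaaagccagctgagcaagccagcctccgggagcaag

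The first question was how the pathway's genes stood in cells kept without added LIF. Over the 3 days together, the receptor gene Lifr, Stat3 and the targets Socs3, Bcl3 and Pim3 stood lower in all OSKM-ESC libraries than in any 2iL-ESC library, and Junb stood higher in all of them. Il6st also fell, by a smaller amount and with overlapping libraries, while Jak1, Pim1 and Socs2 did not pass the test. In the limma fit, 6 of the 10 genes were called lower and 1 higher at an adjusted p under 0.05 (Benjamini-Hochberg over all genes), against a background of 24.4% of all 14016 genes tested called lower, 29.5% higher and 53.8% in either direction. The 6 members whose libraries did not overlap stand beside 26.7% of all genes. The median log2 fold change of all 10 (on the log2(FPKM + 1) scale, as throughout) was -0.58, against 0.032 over all genes tested.

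**Figure D1:**
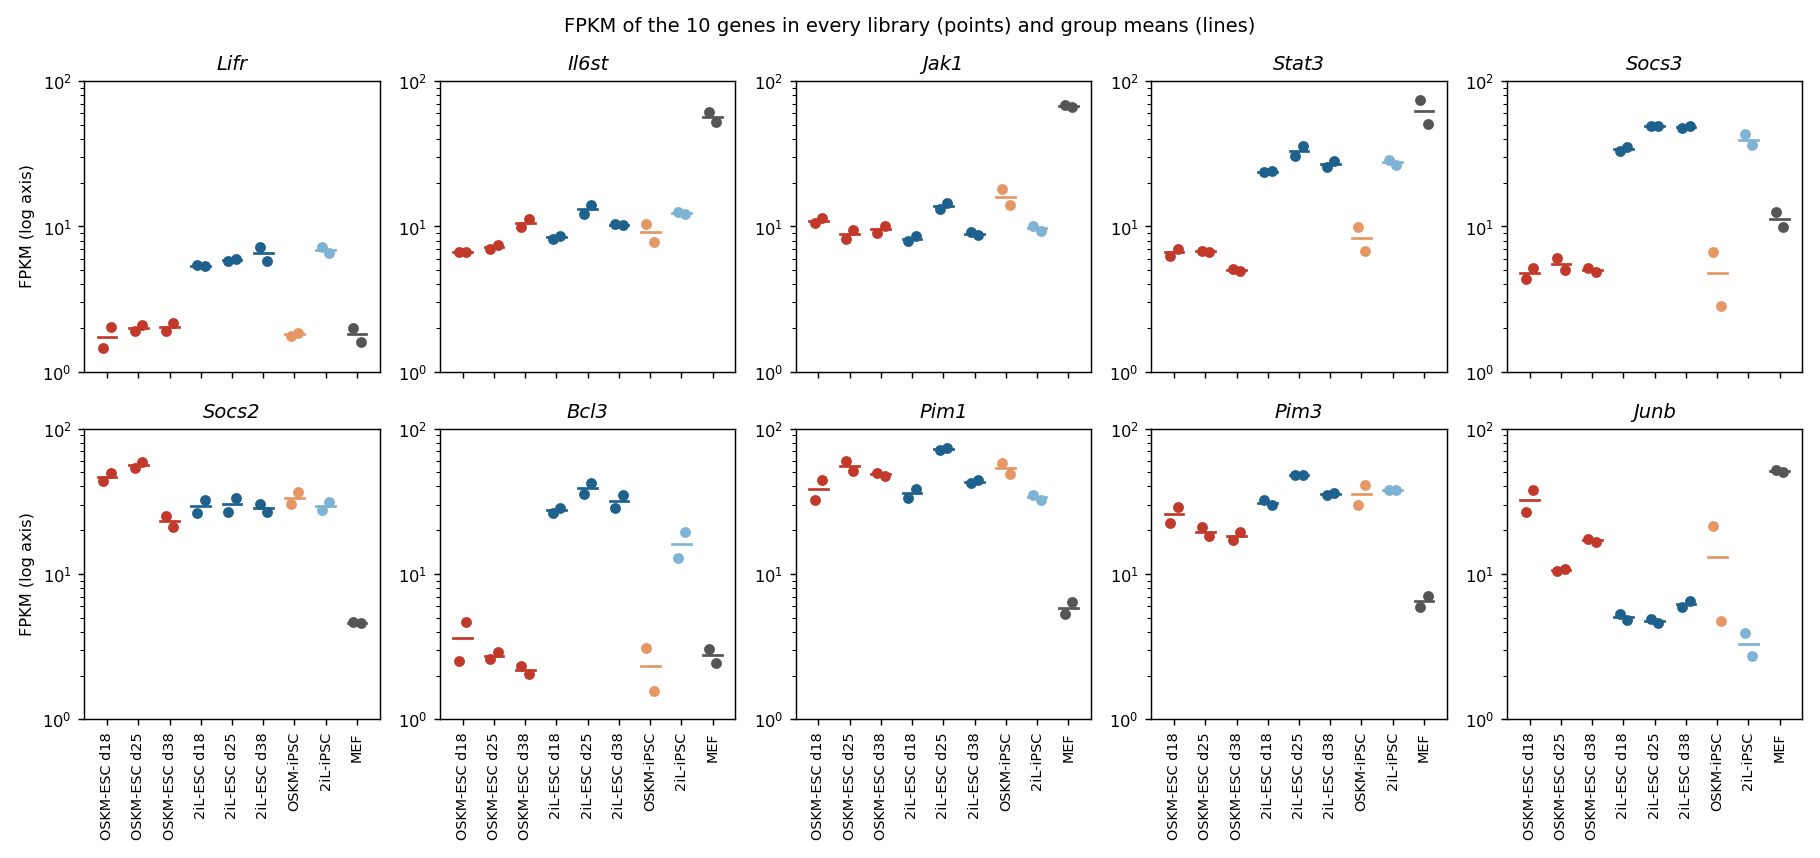
FPKM of each of the 10 genes (log axis) in every library (points, 2 per group) with the group mean (line). Socs3 lies between 33.2 and 49.3 in 2iL-ESCs and between 4.35 and 6.06 in OSKM-ESCs, whereas Il6st, Jak1, Stat3 and Junb are highest in MEF.

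Lifr (chromosome 15, 7090614 to 7197489, plus strand, GRCm38), the LIF-binding chain, ran from 1.46 FPKM through a median of 1.97 to 2.16 in the 6 OSKM-ESC libraries, and from 5.34 through 5.82 to 7.25 in the 6 2iL-ESC libraries. The highest OSKM-ESC library was below the lowest 2iL-ESC library. The mean level was 3.07-fold higher in 2iL-ESCs (5.93 ± 0.694 against 1.93 ± 0.251, SD, n = 6), and the log2 fold change was -1.24 (SE 0.0863, limma adjusted p = 2.95e-07).

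Il6st (chromosome 13, 112464070 to 112510086, plus strand), the shared signalling chain gp130, ran from 6.62 through 7.21 to 11.3 FPKM in OSKM-ESCs and from 8.25 through 10.3 to 14.1 in 2iL-ESCs. The groups overlapped, as the day 38 OSKM-ESC libraries (9.85 and 11.3) exceeded the day 18 2iL-ESC libraries (8.25 and 8.56). The log2 fold change was -0.35 (SE 0.117, limma adjusted p = 0.024), and the exact permutation test (two-sided, 6 against 6) gave p = 0.0606. Without any 1 of the 4 day 25 libraries the limma adjusted p was 0.0538 to 0.0563, above the threshold.

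Jak1 (chromosome 4, 101152367 to 101265282, minus strand), the receptor-bound kinase, ran from 8.21 through 9.75 to 11.4 FPKM in OSKM-ESCs and from 7.92 through 8.94 to 14.5 in 2iL-ESCs. The groups overlapped over most of their range. The log2 difference was -0.048, with a 95% interval from -0.34 to 0.25 (limma adjusted p = 0.788).

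Stat3 (chromosome 11, 100885098 to 100939540, minus strand), the transcription factor that carries the signal, ran from 4.97 through 6.51 to 7.02 FPKM in OSKM-ESCs and from 23.7 through 26.95 to 35.5 in 2iL-ESCs. The groups were far apart, with a mean level 4.55-fold higher in 2iL-ESCs (27.9 ± 4.54 against 6.15 ± 0.902, SD, n = 6). The log2 fold change was -2.01 (SE 0.0907, limma adjusted p = 8.82e-09). Its gene overlaps Stat5a on the other strand by 72 bases, and the library kit is not stated to mark strand.

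Socs3 (chromosome 11, 117966079 to 117970047, minus strand), the feedback inhibitor of gp130, ran from 4.35 through 5.08 to 6.06 FPKM in OSKM-ESCs and from 33.2 through 48.2 to 49.3 in 2iL-ESCs. No library came near the other group, and the mean level was 8.58-fold higher in 2iL-ESCs (43.8 ± 7.49 against 5.10 ± 0.564, SD, n = 6). The log2 fold change was -2.86 (SE 0.0831, limma adjusted p = 4.06e-10).

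Bcl3 (chromosome 7, 19808462 to 19822770, minus strand), an atypical IκB protein that acts with NF-κB subunits, ran from 2.05 through 2.56 to 4.68 FPKM in OSKM-ESCs and from 26.3 through 31.7 to 41.9 in 2iL-ESCs. The mean level was 11.5-fold higher in 2iL-ESCs (32.7 ± 5.89 against 2.85 ± 0.943, SD, n = 6), with a log2 fold change of -3.14 (SE 0.148, limma adjusted p = 1.27e-08). That was the lowest log2 fold change among the 10 genes.

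The PIM kinases, serine/threonine kinases that promote survival, did not move together. Pim3 (chromosome 15, 88862186 to 88865726, plus strand) ran from 17.1 through 20.2 to 29.1 FPKM in OSKM-ESCs and from 29.8 through 35.4 to 48.3 in 2iL-ESCs, so the groups came close without overlapping. It fell by 0.81 on the log2 scale (SE 0.140, limma adjusted p = 0.0004). Pim1 (chromosome 17, 29490753 to 29496112, plus strand) ran from 32.4 through 48.4 to 60.2 FPKM in OSKM-ESCs and from 33.4 through 43.3 to 73.9 in 2iL-ESCs. The groups overlapped, and the log2 difference of -0.051 had a 95% interval from -0.28 to 0.18 (limma adjusted p = 0.707). An antisense gene, Gm26885, covers 1173 bases of Pim1.

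Socs2 (chromosome 10, 95385362 to 95417180, minus strand), an inhibitor best known for restraining growth hormone signalling, ran from 21.0 through 46.6 to 59.3 FPKM in OSKM-ESCs and from 26.1 through 28.7 to 33.4 in 2iL-ESCs. The OSKM-ESC libraries lay on both sides of the 2iL-ESCs, with days 18 and 25 above and day 38 below. The log2 difference was 0.42 (SE 0.172, limma adjusted p = 0.0574). Without any 1 of the 4 day 38 libraries, the difference was called, with limma adjusted p from 0.0138 to 0.0488. Read coverage of Socs2 per FPKM was 0.387 to 0.637, against library medians of 2.72 to 3.31.

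Junb (chromosome 8, 84974484 to 84978718, minus strand), an AP-1 transcription factor of the immediate early class, was the 1 member that rose. It ran from 10.5 through 17.0 to 38.0 FPKM in OSKM-ESCs and from 4.60 through 5.11 to 6.54 in 2iL-ESCs, without overlap. The log2 fold change was 1.59 (SE 0.197, limma adjusted p = 3.24e-05). The fibroblast marker sum was also higher in OSKM-ESCs and Junb was at 50.7 and 52.3 FPKM in MEF. The part of fibroblast RNA in the Junb difference was not tested. Junb overlaps Prdx2 on the other strand by 351 bases, and Prdx2 was at 173 ± 25.0 FPKM in OSKM-ESCs and 164 ± 24.0 in 2iL-ESCs (SD, n = 6).

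The exact permutation test (two-sided, 6 against 6) gave p = 0.0022, the smallest it can give, for Lifr, Stat3, Socs3, Bcl3, Pim3 and Junb. It gave 0.0606 for Il6st, 0.1255 for Socs2, 0.7424 for Jak1 and 0.8247 for Pim1. This permutation test took no account of the day, which is a term in the limma fit over the days together.

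The receptor genes were then set against Socs3. The level of Socs3 relative to Il6st ran from 0.429 to 0.863 in OSKM-ESCs and from 3.45 to 4.77 in 2iL-ESCs. Relative to Lifr it ran from 2.24 to 3.17 in OSKM-ESCs and from 6.15 to 8.48 in 2iL-ESCs, so that both ratios were lower in every OSKM-ESC library than in any 2iL-ESC library. Socs3 was at 0.0844 to 0.230 times the level of Socs2 in OSKM-ESCs and at 1.09 to 1.83 times in 2iL-ESCs. Measured by coverage, that ratio was 0.813 to 1.84 in OSKM-ESCs and 9.38 to 14.8 in 2iL-ESCs, so that it was lower in OSKM-ESCs on both scales. In 2iL-ESCs Socs3 stood above Socs2 on both scales. In OSKM-ESCs it stood below Socs2 by FPKM, whereas by coverage the order varied between libraries. In MEF, Socs3 was at 0.190 to 0.206 times the level of Il6st, below every pluripotent library, and Il6st was at 61.3 and 52.1 FPKM. Relative to Lifr, Socs3 in MEF was at 6.16 to 6.28, within the 2iL-ESC range, and relative to Socs2 at 2.16 to 2.71, above every 2iL library.

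**Figure D2:**
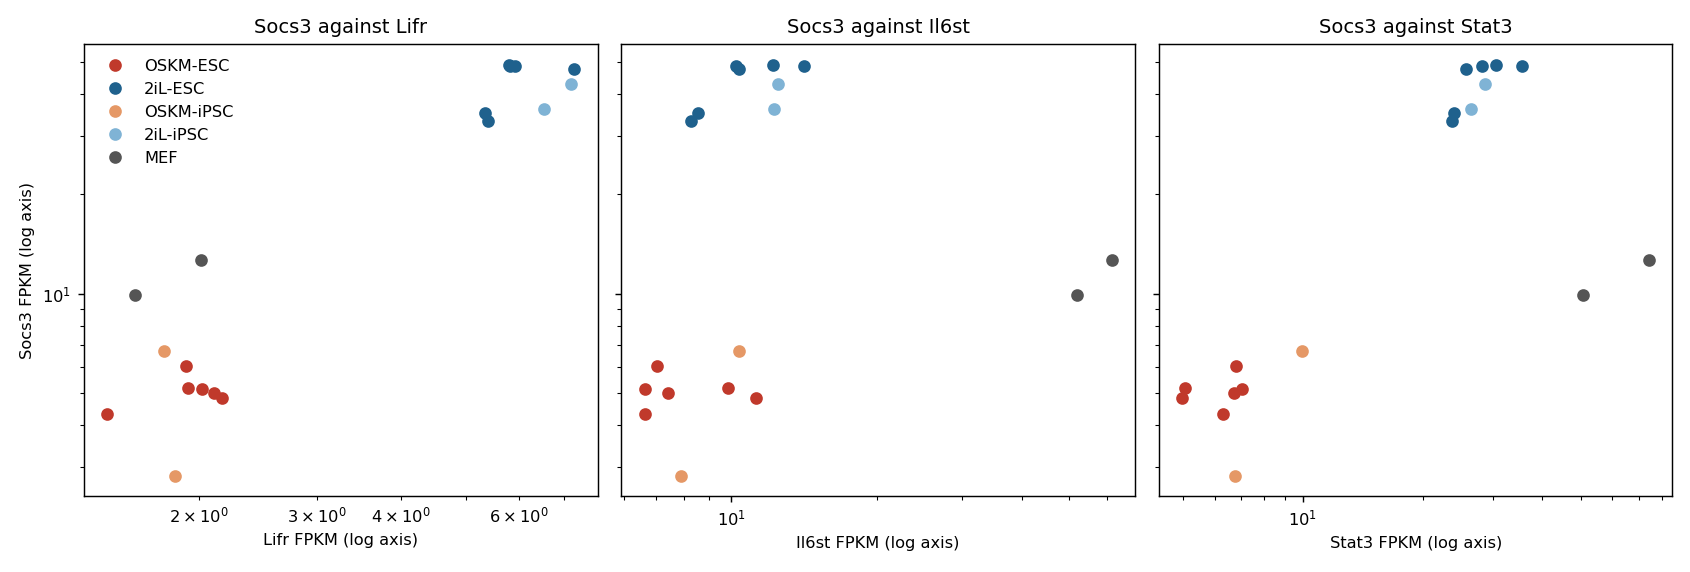
Socs3 FPKM against the FPKM of Lifr, Il6st and Stat3 in all 18 libraries (1 point each, both axes logarithmic, coloured by cell type and medium). The 8 2iL libraries form a group with Socs3 at 33.2 or more, and the MEF libraries lie at high Il6st and Stat3 (at least 52.1 and 50.6) with Socs3 at 9.88 and 12.6.

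The second question was whether the difference between media was the same on each day. Lifr, Stat3, Socs3 and Bcl3 were lower, and Junb higher, in OSKM-ESCs on all 3 days. The limma fit called 7 of the 10 on day 18 (43.4% of all genes tested), 10 on day 25 (46%) and 7 on day 38 (59.8%). The medium by day interaction was called for Il6st, Jak1, Stat3, Socs2, Pim3 and Junb, which is 6 of the 10, against 37.9% of all genes.

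Lifr had log2 fold changes of -1.23, -1.19 and -1.30 on days 18, 25 and 38, a range of 0.11 (limma interaction adjusted p = 0.86). For Socs3 they were -2.61, -2.94 and -3.03 (interaction adjusted p = 0.0797), and for Bcl3 -2.67, -3.41 and -3.35 (0.0949). These 3 genes were called on every day. The interaction was called for Bcl3 and for Socs3 (limma adjusted p = 0.00534 and 0.0376) without the first day 18 OSKM-ESC library, and for Socs3 (0.0341) without the first day 25 OSKM-ESC library.

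Stat3 was at 6.31 and 7.02 FPKM on day 18, 6.81 and 6.71 on day 25 and 5.07 and 4.97 on day 38 in OSKM-ESCs. In 2iL-ESCs it was at 23.7 and 24.0, then 30.6 and 35.5, then 25.7 and 28.2. The 2iL-ESCs were highest on day 25, and the log2 fold change was -1.70, -2.13 and -2.21 on the 3 days (limma interaction adjusted p = 0.0224). That call was lost, with adjusted p from 0.0531 to 0.0701, without any 1 of the second day 18 or day 38 OSKM-ESC libraries, either day 18 2iL-ESC library or the second day 38 2iL-ESC library.

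Il6st rose in OSKM-ESCs from 6.62 in both day 18 libraries to 9.85 and 11.3 FPKM on day 38. In 2iL-ESCs it was at 8.25 and 8.56 FPKM on day 18, 12.2 and 14.1 on day 25 and 10.4 and 10.2 on day 38, highest on day 25. The difference between media was called on day 25 and not on the other days, at a log2 fold change of -0.78 (limma adjusted p = 0.00422), with -0.30 on day 18 (0.0733) and 0.030 on day 38 (0.779). On day 18 it was called with median-ratio (-0.42, 0.0206) and quantile scaling (-0.42, 0.02). Without the second day 25 2iL-ESC library the day 25 adjusted p was 0.0616. The test between days in OSKM-ESCs (adjusted p = 0.0132) was lost without either day 38 library, at 0.0633 and 0.136.

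Jak1 followed the same day 25 rise in 2iL-ESCs. It was at 7.92 and 8.59 FPKM on day 18, 13.3 and 14.5 on day 25 and 9.21 and 8.67 on day 38, whereas the OSKM-ESCs stayed between 8.21 and 11.4. The log2 difference was 0.37 on day 18 (limma adjusted p = 0.044), -0.60 on day 25 (0.0105) and 0.083 on day 38 (0.408). The day 18 call was lost without any 1 of its 4 libraries (0.0881 to 0.215) and with median-ratio or quantile scaling (0.106 in both), no filter (0.0692), limma without trend (0.0532), coverage (0.0556) and TPM (0.05). The day 25 call was lost without either 2iL-ESC library (0.0764 and 0.12). The interaction, at a range of 0.97 (adjusted p = 0.00161), was called whichever library was left out.

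Pim1 and Pim3 were both at their highest in 2iL-ESCs on day 25. Pim1 was at 71.7 and 73.9 FPKM there, against 33.4 and 38.6 on day 18 and 42.3 and 44.3 on day 38. Pim3 was at 48.0 and 48.3, against 32.1 and 29.8 on day 18 and 34.9 and 35.9 on day 38. The log2 difference between media for Pim3 was -0.26 on day 18 (limma adjusted p = 0.189), -1.26 on day 25 (0.000665) and -0.92 on day 38 (0.000352). For Pim1 it was 0.075 (0.748), -0.39 (0.0319) and 0.16 (0.0409). The Pim1 calls were lost without either day 25 2iL-ESC library (0.181 and 0.223) or any day 38 library (0.0722 to 0.158), and with median-ratio scaling (0.0669 on day 25 and 0.547 on day 38), no filter (0.0807 and 0.0629), limma without trend (0.0536 and 0.101) and a single fit of all 9 groups (0.0503 and 0.426).

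Socs2 changed most between days 25 and 38 in OSKM-ESCs. It was at 43.9 and 49.3 FPKM on day 18, 53.9 and 59.3 on day 25 and 25.1 and 21.0 on day 38, with the day 38 libraries below all others of that medium. In 2iL-ESCs it stayed between 26.1 and 33.4. The log2 difference was 0.66 on day 18 (limma adjusted p = 0.00929), 0.89 on day 25 (0.00406) and -0.30 on day 38 (0.0531). The day 18 call was lost without the second OSKM-ESC library (0.0754) or the first 2iL-ESC library (0.0902), with no filter (0.0512), and with coverage in place of FPKM (a log2 difference of 0.39, 0.0665). The day 38 difference was called with median-ratio scaling (-0.42, 0.0219), with coverage (-0.26, 0.0478) and with a filter of 1 FPKM in at least 2 libraries (0.0476). The trophoblast and endoderm marker sums were also highest among the OSKM-ESCs on day 38. The trophoblast sum rested on Cdx2, and of the 2 trophoblast markers tested on day 38 limma called 1 higher and 1 lower. The part of either sum in the day 38 values of Socs2, Il6st and Stat3 was not tested.

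Junb was highest in OSKM-ESCs on day 18, at 26.6 and 38.0 FPKM, lowest on day 25, at 10.5 and 10.9, and at 17.5 and 16.6 on day 38. The fibroblast marker sum was 25.2 and 27.2 FPKM on day 18 in the same libraries, 15.9 and 16.3 on day 25 and 17.3 and 16.5 on day 38. The log2 fold change between media was 2.44, 1.02 and 1.32 on the 3 days (limma interaction adjusted p = 0.00127). In a single fit of all 9 groups the interaction (0.204) and the day 25 difference (0.0778) were not called.

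Within one medium, the limma test between days called 3 of the 10 in OSKM-ESCs (Il6st, Socs2 and Junb, against 38.6% of all genes). It called 7 of the 10 in 2iL-ESCs (Il6st, Jak1, Stat3, Socs3, Bcl3, Pim1 and Pim3, against 50.8%), and each of these 7 had its highest group mean on day 25. The share of all genes highest on that day was not computed. The day 25 2iL-ESC libraries also held more genes over 1 FPKM (11831 and 11842) than the other 2iL-ESC libraries (11303 to 11567). Of the 7, Stat3 was lost without the second day 25 library (limma adjusted p = 0.0757) and Bcl3 without any 1 of the day 18 or day 25 libraries (0.0552 to 0.166). With no filter both were lost (0.0577 and 0.122), and in a single fit of all 9 groups Stat3, Socs3 and Bcl3 were (0.162, 0.217 and 0.371).

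**Figure D3:**
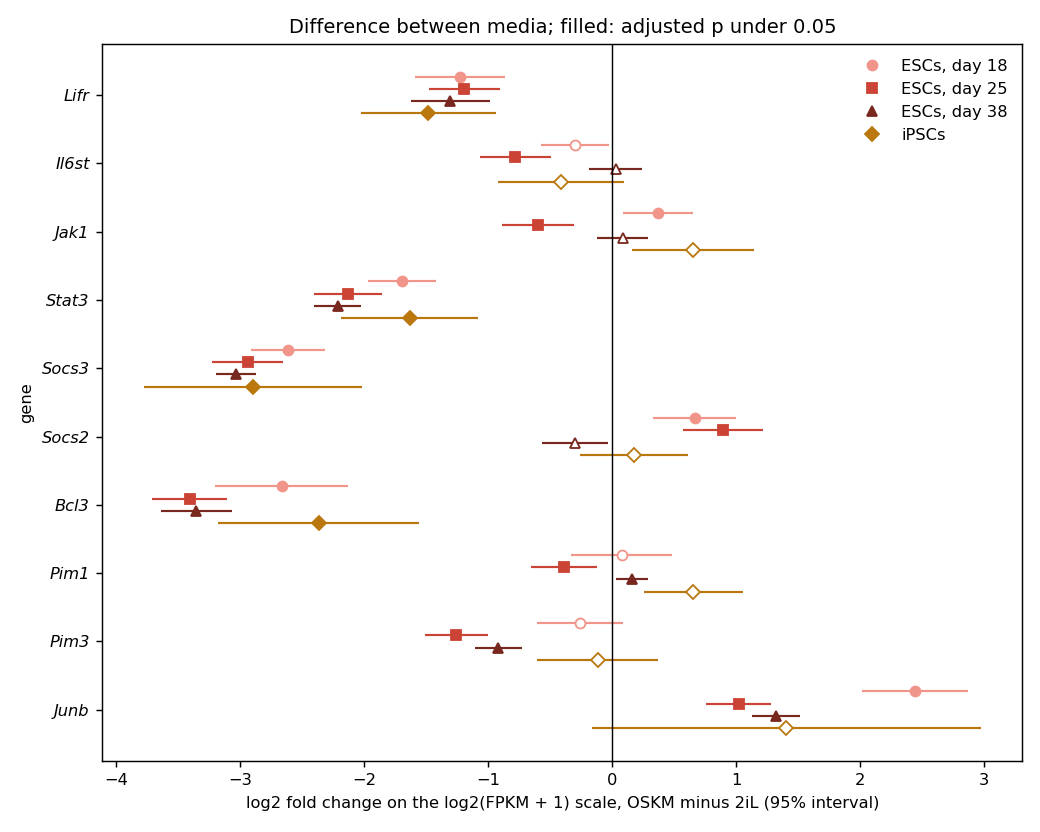
Log2 fold change of OSKM against 2iL cells for each gene on each day in ESCs and in iPSCs, on the log2(FPKM + 1) scale, with the 95% interval from limma (filled symbols, adjusted p under 0.05). Lifr, Stat3, Socs3 and Bcl3 lie left of 0 with filled symbols in all 4 comparisons, and Jak1 changes sign between days.

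The third question was whether the reprogrammed clones showed the same difference, although medium and passage cannot be told apart in them. In the iPSCs, Lifr was at 1.78 and 1.84 FPKM in OSKM-iPSC clones 1 and 3 and at 7.18 and 6.54 in 2iL-iPSC clones 3 and 6. Stat3 was at 9.92 and 6.75 against 28.7 and 26.4, and Socs3 at 6.72 and 2.82 against 42.9 and 36.2. Bcl3 was at 3.10 and 1.57 against 12.8 and 19.3. In these 4 genes both OSKM-iPSC clones were below both 2iL-iPSC clones. With 2 clones a side, 62.6% of all genes did not overlap in either direction. The limma fit called these 4 of the 10 lower and none higher, against 2.96% of all 13653 genes called lower, 5% higher and 7.96% in either direction.

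The log2 fold changes were -1.48 for Lifr (limma adjusted p = 0.0241), -1.63 for Stat3 (0.0202), -2.90 for Socs3 (0.0175) and -2.37 for Bcl3 (0.0209). Without either 2iL-iPSC clone no gene in the whole table was called by limma (adjusted p from 0.318 to 0.324 for these 4). At an unadjusted p under 0.05 there were then 5 members without clone 3 and 4 without clone 6. With no filter on low values limma likewise called no gene (0.115 to 0.12 for these 4), with 6 members at an unadjusted p under 0.05. With coverage in place of FPKM, Lifr was not called (0.0551).

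The other 6 genes were not called in the iPSCs. The levels were 10.4 and 7.86 FPKM in OSKM-iPSCs against 12.5 and 12.3 in 2iL-iPSCs for Il6st, and 18.0 and 13.99 against 10.1 and 9.38 for Jak1. Both OSKM-iPSC clones were below both 2iL-iPSC clones for Il6st and above them for Jak1. Pim1 was at 58.3 and 48.9 against 34.7 and 32.5, Pim3 at 29.6 and 40.9 against 37.7 and 38.0, and Socs2 at 30.4 and 36.7 against 27.5 and 31.5. Junb was at 21.3 in OSKM-iPSC clone 1 and 4.77 in clone 3, against 3.93 and 2.72. The difference of Junb therefore rested mostly on clone 1. Without clone 3 the log2 fold change of Junb was 2.38, and without clone 1 it was 0.43. The fibroblast markers summed to 71.9 FPKM in clone 1 against 4.32 in clone 3, and the part of fibroblast RNA in the Junb difference was not tested.

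The difference between media in iPSCs was tested against the mean daily difference in ESCs. It was called for Jak1 (a difference of 0.70 on the log2 scale, limma adjusted p = 0.00994), Pim1 (0.71, 0.0166) and Pim3 (0.70, 0.0218), which is 3 of the 10 against 14.2% of all genes. For Socs3 the difference was -0.034, with a 95% interval from -0.64 to 0.58, and for Lifr -0.24, from -0.59 to 0.10. The Pim1 call was lost without 2iL-iPSC clone 6 (0.0634) and with coverage in place of FPKM (0.41, 0.166). The Pim3 call was lost without OSKM-iPSC clone 3 (0.0508), 2iL-iPSC clone 3 (0.0599) or clone 6 (0.0634). Leaving out OSKM-iPSC clone 1 called Socs3 at -0.54 (0.026) and Junb at -1.16 (0.00439), whereas leaving out clone 3 called Socs3 at 0.47 (0.0427), Junb at 0.79 (0.0262), Stat3 at 0.63 (0.00575) and Bcl3 at 1.11 (0.0242).

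Both kinds of iPSC were compared with the same 2 MEF libraries, so these comparisons share their controls. MEF expressed the upstream genes at higher levels than the pluripotent cells, with the exception of Lifr. Il6st was at 61.3 and 52.1 FPKM, Jak1 at 68.5 and 65.8 and Stat3 at 74.2 and 50.6 in the 2 MEF libraries. No pluripotent library exceeded 14.1 for Il6st, 18.0 for Jak1 or 35.5 for Stat3. Junb was at 52.3 and 50.7, also above every pluripotent library.

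The targets Socs2, Pim1 and Pim3 showed the opposite order, with MEF lowest. They were at 4.65 and 4.58, 5.28 and 6.46, and 5.89 and 7.10 FPKM, while no pluripotent library was below 21.0, 32.4 and 17.1. Limma called 7 of the 10 between OSKM-iPSCs and MEF (60.3% of all genes) and all 10 between 2iL-iPSCs and MEF (78%). Without either MEF library no gene was called between OSKM-iPSCs and MEF (limma adjusted p from 0.0625 to 0.066 for 6 of these 7 and up to 0.244 for Junb), and 6 members had an unadjusted p under 0.05. The Junb call (0.0482) was also lost with a pseudocount of 0.1 (0.0572), no filter (0.117), TPM (0.0544), limma without trend (0.0552) and coverage (0.0598). Between 2iL-iPSCs and MEF the call of Stat3 was lost without either iPSC clone (0.0906 and 0.11).

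Lifr, Socs3 and Bcl3 were not called between OSKM-iPSCs and MEF and were higher in 2iL-iPSCs than in MEF. Lifr was at 2.01 and 1.60 FPKM in MEF, among the OSKM-iPSC and OSKM-ESC values. Its log2 difference was 0.0049 against OSKM-iPSCs (95% interval from -0.46 to 0.47) and 1.49 in 2iL-iPSCs (limma adjusted p = 0.0004). Socs3 was at 12.6 and 9.88 FPKM in MEF, between both media. Its log2 difference was -1.17 for OSKM-iPSCs (0.0588) and 1.73 for 2iL-iPSCs (0.000426), and without OSKM-iPSC clone 1 the former was called at -1.67 (0.0251). It was also called with median-ratio (-1.39, 0.0351) and quantile scaling (-1.29, 0.0471) and in a single fit of all 9 groups (0.000876). Bcl3 was at 3.06 and 2.46 FPKM in MEF, and 2iL-iPSCs stood 2.16 higher on the log2 scale (0.000606).

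In the order of the 9 groups by mean FPKM, Lifr, Socs3 and Bcl3 had the 4 2iL groups on top. For Lifr these were 2iL-iPSC (6.86 ± 0.449, SD, n = 2), 2iL-ESC day 38 (6.54 ± 1.01) and day 25 (5.87 ± 0.0864), each overlapping its neighbour, and then day 18 (5.37 ± 0.0438). The next group was OSKM-ESC day 38 at 2.04 ± 0.170. Neighbouring groups among the other 5 overlapped, except OSKM-ESC day 25 and OSKM-iPSC. For Socs3 the order was 2iL-ESC day 25, day 38, 2iL-iPSC and day 18 (49.0, 48.2, 39.6 and 34.2), with no overlap between neighbours. MEF followed at 11.3 and then the 4 OSKM groups, which overlapped from 5.53 to 4.75. For Bcl3 the 2iL-iPSCs (16.1 ± 4.61) were below the 3 2iL-ESC groups (27.4 to 38.8).

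The wider pathway was described with lists taken from textbook knowledge. Of 9 ligand genes, 4 were above the filter in ESCs and 2 were called in the days together, 1 higher and 1 lower, a share close to the 53.8% of all genes called. Osm, the cytokine oncostatin M, was at 0 to 0.365 FPKM in OSKM-ESCs and 3.58 to 7.12 in 2iL-ESCs (log2 fold change -2.36, limma adjusted p = 7.05e-08). Ctf1, cardiotrophin 1, was called at 0.30 (0.0477), and the call was lost without all but 1 of the 12 libraries in turn (0.0516 to 0.113). Lif itself was at 2.11 to 3.54 FPKM in OSKM-ESCs and 1.49 to 3.18 in 2iL-ESCs (0.25, 0.0902), and stands outside the rule for naming genes.

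Of 5 other receptor genes, 3 were tested, with 1 called higher and 1 lower, too few to set against that share. Cntfr, the chain that binds ciliary neurotrophic factor and joins LIFR and gp130, was at 15.8 to 49.5 FPKM in OSKM-ESCs and 1.73 to 3.56 in 2iL-ESCs. Its log2 fold change was 3.33 (limma adjusted p = 4.74e-07), opposite to that of Lifr. Il6ra, the interleukin 6 chain, fell by 0.85 (6.22e-06) from a level near 1 FPKM, and by 2.05 with a pseudocount of 0.1.

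Of 8 other JAK and STAT genes, all were tested, and 4 were called lower and none higher (24.4% and 29.5% of all genes, 53.8% in either direction), with a list median of -0.61 against 0.032 over all genes tested. Jak3, a kinase best known from lymphocytes, was at 1.27 to 1.86 FPKM in OSKM-ESCs and 15.7 to 24.5 in 2iL-ESCs (-3.10, limma adjusted p = 1.95e-10). Stat2 and Tyk2, both of the interferon route, fell by 1.70 (1.29e-05) and 0.94 (2.36e-06). Stat5a, a STAT best known from prolactin and growth hormone signalling, was at 0.261 to 1.08 FPKM in OSKM-ESCs and 1.69 to 2.18 in 2iL-ESCs (-0.84, 4.21e-05).

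Of the 14 inhibitor genes, 3 were called higher, 4 lower and 7 not, a share close to the 53.8% of all genes. Ptpn6, the phosphatase SHP-1, fell by 0.90 (limma adjusted p = 1.56e-05) and Pias2, a STAT-binding SUMO ligase, by 0.77 (1.66e-05). Socs5, a further SOCS family member, rose by 0.70 (0.00252) and Ptpn1, the phosphatase PTP1B, by 0.55 (1.87e-05). The list median was 0.091, against 0.032 over all genes.

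Of 18 further reported targets, 6 were called higher and 7 lower, against 29.5% and 24.4% of all genes. Tbx3 and Tfcp2l1, transcription factors of naïve pluripotency, were at 0.487 to 1.10 and 2.57 to 7.59 FPKM in OSKM-ESCs and 13.9 to 48.2 and 43.5 to 84.3 in 2iL-ESCs. The log2 fold changes were -3.96 (limma adjusted p = 1.04e-08) and -3.37 (5.12e-07). Pim2, the third PIM kinase, was at 162 to 405 FPKM in OSKM-ESCs and 6.69 to 21.5 in 2iL-ESCs (4.11, 9.65e-07), so that the 3 PIM genes showed a rise, a fall and no call. Myc rose by 3.35 (3.31e-08), and its values can include reads of the c-Myc in the cassette. The list median was 0.054.

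**Figure D4:**
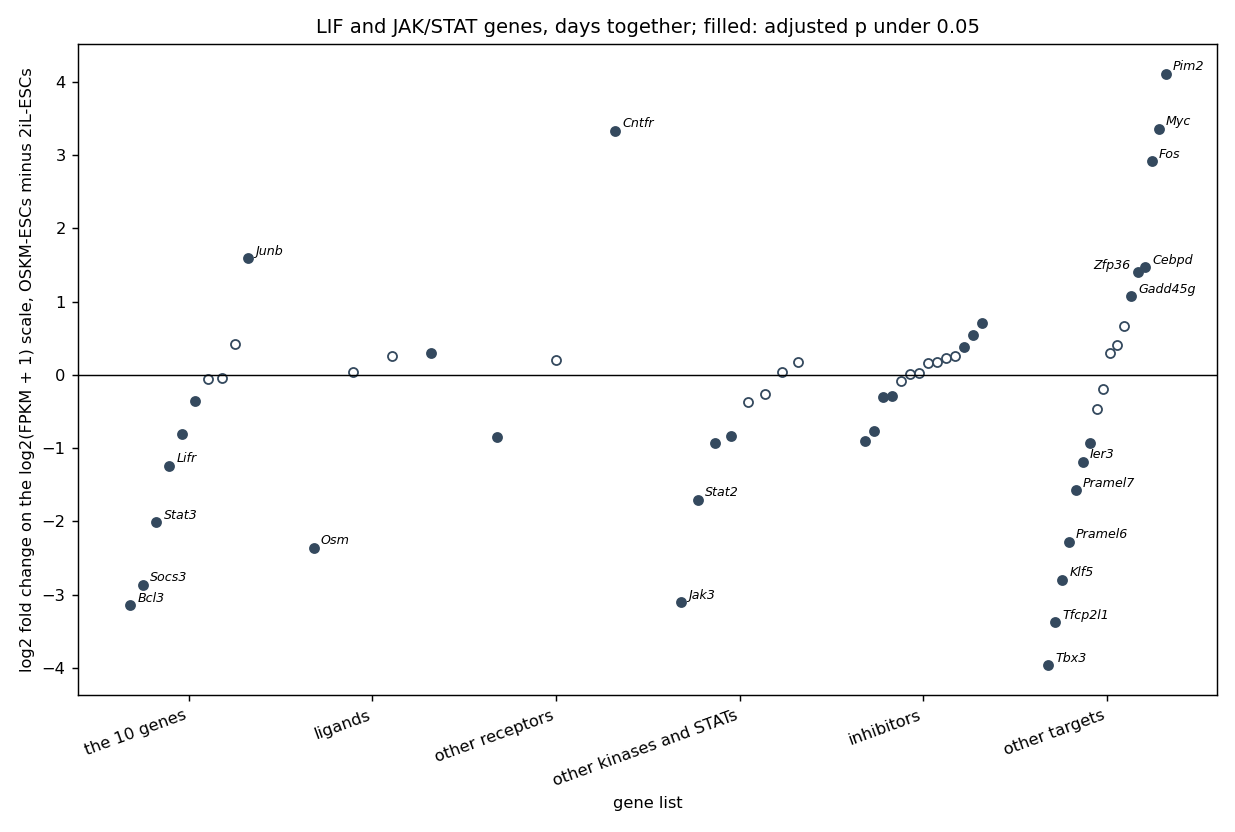
Log2 fold change of OSKM-ESCs against 2iL-ESCs over the 3 days together, on the log2(FPKM + 1) scale, for each tested gene of the 10 and of the 5 further lists (1 point per gene, filled where the limma adjusted p is under 0.05, named where it is also beyond 1 in size). The other kinases and STATs include 4 filled points, all below 0, whereas the further targets run from -3.96 for Tbx3 to 4.11 for Pim2.

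In the iPSCs, limma called none of the 4 ligand, 3 other receptor or 14 inhibitor genes tested, against 7.96% of all genes, and lists of this size are too short to be set against that share. Jak3 fell by 1.84 (limma adjusted p = 0.015), and among the 18 further targets 5 were called higher and 3 lower, against 5% and 2.96% of all genes. These included Pim2 (3.28, 0.0127), Myc (1.69, 0.0286), Tbx3 (-3.89, 0.00614) and Tfcp2l1 (-3.02, 0.006). Without either 2iL-iPSC clone none of these 5 was called (0.318 to 0.323).

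Across the 16 ESC and iPSC libraries and 8249 genes with a mean of at least 5 FPKM, the genes whose log2 level was most like that of Socs3 were Pmel (Pearson r = 0.988), Fblim1 (0.984), Stat3 (0.979), Tbx3 (0.978) and Tle5 (0.977). For Lifr they were Cdk2 (0.980), Prdm14 (0.980), Khdc3 (0.977), Nr5a2 (0.977) and H2-M6-ps (0.976). These libraries fall into 2 clusters by medium, so these r values describe the gap between the clusters. Within the 8 OSKM and the 8 2iL libraries, r with Socs3 was 0.57 and 0.75 for Pmel, 0.33 and 0.74 for Stat3 and 0.092 and 0.089 for Tle5. With Lifr it was -0.21 and 0.50 for Cdk2. ESC points of one group may share a culture, which the labels do not settle, the iPSC points are separate clones, and no test was made.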

How the data were processed

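Poly-A RNA was sequenced from 18 libraries of the 9 groups given above. The authors aligned reads with STAR (2.7.1a) to GRCm38 and quantified genes with StringTie (2.0). Cuffdiff (2.2.1) is also named in the submitters' processing notes, and its output was not used here. The deposited files give FPKM, coverage (mean read depth) and TPM per gene and library, normalized by the authors, and no counts, so that sequencing depth and counting error are unknown. Deposited TPM equalled rescaled FPKM to within 0.0026, and 2 libraries in which it failed were rescaled here.

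IDs listed more than once (11) were summed and 2 genes with a failed value were left out, which kept 55469 genes. Genes over 1 FPKM in at least 1 library compared were tested with limma (3.58.1, R 4.3.3; lmFit and eBayes with trend) on log2(FPKM + 1), with the day as a term over days together, Benjamini-Hochberg adjustment over all genes and a threshold of 0.05. Fold changes on this scale understate those of low genes. Single genes were also compared by an exact permutation test of 6 against 6 libraries, without regard to day. The interaction and the tests between days are F tests, whose size is the range of the log2 difference over days. The fits over the days together and between the iPSCs were also run on simulated data with independent noise and a fixed change in some genes. That setting differs from these libraries, which may share a culture, and its outcome is not given here.

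The members, lists and alternatives were chosen with earlier results of these data known. From each further list, up to 4 called genes with the largest change in ESCs were named, and 2 genes of these lists are not reported here. The alternatives were another pseudocount (0.1), other filters, median-ratio, quantile or TPM scaling, limma without trend, a single fit of all 9 groups, a replicate block, each library left out and, added after seeing the data, coverage in place of FPKM.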

Additional observations from a re-analysis of the deposited data

Results flagged for a closer look

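In the 6 OSKM-ESC libraries, the lowest Lifr value (1.46 FPKM, day 18) was separated from the next by 0.645 of the whole range. In the 6 2iL-ESC libraries, the highest Lifr value (7.25 FPKM, day 38) was separated by 0.692 of the range. The highest Bcl3 value in OSKM-ESCs (4.68 FPKM, day 18) was separated by 0.679 of the range. Dixon's 95% critical value is 0.625 for 6 libraries, which chance passes in about 1 in 20 groups, and these groups also pool 3 days.

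The difference between media varied between days by the limma interaction test for 6 genes. The range of the log2 difference over the 3 days was 0.81 for Il6st, 0.97 for Jak1, 0.52 for Stat3, 1.198 for Socs2, 0.995 for Pim3 and 1.42 for Junb.

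The difference between media in iPSCs exceeded that in ESCs, on the signed log2 scale, by 0.70 for Jak1, 0.71 for Pim1 and 0.70 for Pim3.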

How the results depend on the processing

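Over the 3 days together, Lifr, Stat3, Socs3, Bcl3, Pim3 and Junb kept their direction and their call under all 22 alternatives. The replicate numbers did not pair the libraries (correlations of same-numbered deviations 0.131, 0.0904 and 0.012 on days 18, 25 and 38). A replicate block lost the calls of Il6st (adjusted p 0.0628), Ctf1 (0.0666) and, on day 38, Pim1 (0.0851), and added Socs2 on day 38 (0.014). Days-together Socs2 was called with TPM (0.0372) and in the single fit (0.000903), which lost the Stat3 interaction (0.262).

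The number of the 10 called moved beyond 1.5 times in few cases, of which the cause was not tested. Between days in 2iL-ESCs it was 4 in the single fit in place of 7. Between the iPSCs it was 0 with no filter and 8 in the single fit in place of 4, and 0 to 5 with a library left out. Between OSKM-iPSCs and MEF it was 0 to 8 with a library left out, and for the iPSC difference minus the ESC difference 1 to 6.

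Reversed directions touched uncalled differences only, apart from 2 called after a library was left out (Socs3 and Junb, iPSC minus ESC). On day 18 Pim1 was -0.057 with median-ratio scaling. On day 38 Il6st was -0.078 and -0.077 with median-ratio and quantile scaling and -0.029 with coverage, and Jak1 -0.024 and -0.041 with these scalings. Between OSKM-iPSCs and MEF, Lifr was -0.16, -0.013 and -0.081 with median-ratio scaling, quantile scaling and TPM. With a library left out, values ran from -0.11 to 0.044 for Jak1 and from -0.12 to 0.021 for Pim1 over the days together, from -0.14 to 0.29 for Pim1 on day 18 and from -0.059 to 0.12 for Il6st on day 38. Between the iPSCs Pim3 ran from -0.34 to 0.11. Between OSKM-iPSCs and MEF, Lifr ran from -0.10 to 0.11 and Bcl3 from -0.54 to 0.13. For the iPSC minus the ESC difference, Il6st ran from -0.24 to 0.12, Socs3 from -0.54 to 0.47 and Junb from -1.16 to 0.79.

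Over all genes, limma called 5546 on day 18 (2642 to 4171 with a library left out) and 6030 on day 25 (2864 to 6792). The interaction was called for 5319 (3086 in the single fit). Between days it was 5050 in OSKM-ESCs (3316 with no filter, 1972 to 5608 with a library left out) and 6465 in 2iL-ESCs (4122 in the single fit, 4157 to 6170). Between the iPSCs it was 1087 (0 with no filter, with 5014 at an unadjusted p under 0.05; 6289 in the single fit; 0 to 2076 with a library left out, with 1880 and 1917 unadjusted where it was 0). Against MEF it was 8572 for OSKM-iPSCs (0 to 9775, with 5832 and 5877 unadjusted where it was 0) and 11093 for 2iL-iPSCs (7190 to 10144), and 2079 for the iPSC minus the ESC difference (1406 to 3656). The share of iPSC calls that were higher was 62.8%, 50.2% with median-ratio and 49.5% with quantile scaling.

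Deposited FPKM without counts gives no counting error, and each group has 2 libraries.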
